A study of Mus musculus with 8 samples.

Results

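Peaks of open chromatin were described at 7 genes that write or remove repressive methyl marks: Kdm6b, Tet1, Tet2, Tet3, Dnmt1, Dnmt3a and Dnmt3b. A peak belonged to a gene when it overlapped the gene or the 10 kb on either side. Overlapping peaks of all samples (by 1 bp or more) were joined to merged regions, and 98 of 189914 regions lay at the 7 genes. Open chromatin was measured by ATAC-Seq, in which a transposase inserts sequencing adapters into accessible DNA, in retinal ganglion cells (RGCs), the neurons whose axons form the optic nerve. All samples came from C57BL/6J mice whose eyes received AAV2, a virus that transduces RGCs, and whose optic nerve was crushed (ONC) 2 weeks later. RGCs were enriched from dissociated retinas by sorting on the surface protein CD90.2, which T cells also carry, 3 days after ONC, with 50000 cells per library. The virus carried GFP as control (3 samples), Ezh2, the histone methyltransferase that places H3K27me3 (3 samples), or Ezh2-Y726D, a form without catalytic activity (2 samples). The animals were adults of both sexes, and the virus reaches most but not all RGCs, so a library mixes transduced and untransduced cells. Nothing in the labels ties the libraries to separate animals or pools, so p-values measure only the spread between these samples, which may be technical.

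Kdm6b is a demethylase that removes methyl groups from histone H3 lysine 27, the mark that Ezh2 places. Tet1, Tet2 and Tet3 oxidise 5-methylcytosine in DNA and so start its removal. Dnmt1 copies DNA methylation onto the new strand after replication, whereas Dnmt3a and Dnmt3b methylate previously unmethylated sites. In neurons Dnmt3a and Tet3 are well known members of these families, and Dnmt3b is known mainly from early development.

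The starts of these genes differ in their content of CpG, the site that Dnmt and Tet enzymes act on. The 250 bases before an annotated start were taken from RefSeq (GRCm38.p6), which gave such windows for 6 of the 7 genes. 5 windows are shown, to set the richest in CpG (Tet2) beside pairs of starts of the same gene of which one was open in every list and the other in few or none (Dnmt3a and Dnmt1). They read 5′ to 3′ on the gene's strand, with each CpG in capitals.
Tet2, chr3:133544391-133544640, minus strand: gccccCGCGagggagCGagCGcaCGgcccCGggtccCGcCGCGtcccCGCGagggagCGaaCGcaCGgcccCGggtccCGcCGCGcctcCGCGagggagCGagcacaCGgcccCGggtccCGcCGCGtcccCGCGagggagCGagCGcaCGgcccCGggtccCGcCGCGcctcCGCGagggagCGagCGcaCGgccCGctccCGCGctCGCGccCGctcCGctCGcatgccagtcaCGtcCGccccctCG
Dnmt3a first start, chr12:3806730-3806979, plus strand: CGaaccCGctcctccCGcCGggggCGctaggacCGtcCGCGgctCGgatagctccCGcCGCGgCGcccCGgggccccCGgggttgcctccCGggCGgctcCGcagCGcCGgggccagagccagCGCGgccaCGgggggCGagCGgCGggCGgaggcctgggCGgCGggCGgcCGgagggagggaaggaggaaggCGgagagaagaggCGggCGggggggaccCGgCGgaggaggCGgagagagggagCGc
Dnmt3a internal start, chr12:3891494-3891743, plus strand: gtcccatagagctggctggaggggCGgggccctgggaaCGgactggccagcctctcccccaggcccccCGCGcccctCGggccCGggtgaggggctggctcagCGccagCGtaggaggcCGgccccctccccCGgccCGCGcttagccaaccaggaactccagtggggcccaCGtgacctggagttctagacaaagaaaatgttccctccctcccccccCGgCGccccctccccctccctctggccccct
Dnmt1 start, chr9:20952980-20953229, minus strand: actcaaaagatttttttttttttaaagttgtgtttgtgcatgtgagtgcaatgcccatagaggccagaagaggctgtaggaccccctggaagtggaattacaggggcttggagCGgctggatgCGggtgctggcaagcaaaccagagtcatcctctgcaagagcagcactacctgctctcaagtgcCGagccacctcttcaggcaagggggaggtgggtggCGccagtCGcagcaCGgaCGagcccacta
Dnmt1 most upstream start, chr9:20959889-20960138, minus strand: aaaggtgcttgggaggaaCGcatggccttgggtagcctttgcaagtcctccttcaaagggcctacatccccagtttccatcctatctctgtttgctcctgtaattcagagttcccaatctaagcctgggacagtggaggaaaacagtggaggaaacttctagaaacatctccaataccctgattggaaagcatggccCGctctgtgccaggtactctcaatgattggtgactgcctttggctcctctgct

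The Tet2 window held 51 CpG, a number reached by 0.07% of the 32851 windows of all genes, whose median was 6. The window of the first Dnmt3a start held 38 CpG (1.88% of windows had as many) and that of the internal start 15 (27.31%). Of the 2 Dnmt1 windows open in all 8 lists, the one shown held 7 CpG (46.3%) and the other, chr9:20952624-20952873, 26 (9.59%), whereas that of the most upstream start held 2 (81.18%). The GC box, searched as GGGCGG on both strands with every overlapping match counted, occurred 5 times at the first Dnmt3a start, 1 time each at its internal start and in the Tet2 window, and at neither of the Dnmt1 windows shown, but 2 times in the other open Dnmt1 window. It occurred in 32.74% of all windows. All 8 lists had a peak over the Tet2 window, the first Dnmt3a window and the Dnmt1 window shown first. The window of the internal Dnmt3a start had a peak in 4 lists, and that of the most upstream Dnmt1 start had none in any list. Of all windows, 47.99% carried a peak in each of the 8 lists and 44.96% carried none. The other windows not shown held 40 CpG and 4 GC boxes at a second Dnmt3a start, chr12:3806910-3807159, 21 CpG at Dnmt3b, 17 at Tet3 and 15 at Tet1, and each had a peak in all 8 lists.

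Each list held between 112939 and 135895 peaks. The lists carry no read numbers, so depth is unknown, and an index of the background pileup recovered from steps in the fold values ran from 2.686 to 3.738 in GFP, from 3.094 to 3.587 in Ezh2, and was 2.388 and 3.123 in Ezh2-Y726D. Among 20 RGC marker genes, 17 to 19 had a peak at the start in each list. Both Ezh2-Y726D samples lacked a start peak at the RGC marker Isl2, which all GFP and Ezh2 samples had. Of 20 microglia and macrophage markers, 14 to 17 had one in the GFP lists, 14 to 18 in the Ezh2 lists, and 5 and 4 in the Ezh2-Y726D lists. For 20 T cell markers the numbers were 15 to 18 (GFP), 18 to 19 (Ezh2), and 7 and 6 (Ezh2-Y726D). Summed folds at these starts were 76.5 to 85.7 in GFP, 77.0 to 101 in Ezh2, against 40.0 and 34.4 in Ezh2-Y726D for microglia and macrophages. For T cells they were 80.8 to 99.8, 97.2 to 109, and 43.7 and 35.3. A missing peak added nothing to a sum, so the sums partly repeat these counts, and the folds were not put on one scale. 15 microglia and macrophage markers, Cx3cr1, C1qa, Tmem119 and Ptprc among them, and 13 T cell markers, Cd3e, Cd3g, Cd8a and Lck among them, had no peak in either Ezh2-Y726D list. 4 to 6 of 10 rod markers had a start peak in the Ezh2 lists, 8 in each GFP list, and 6 and 8 in the Ezh2-Y726D lists. Of 10 markers each, 9 had one in every list for Müller glia, 7 to 8 for amacrine cells and 9 to 10 for bipolar cells.

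Peak strength was read from the deposited fold, that is, the summit's pileup divided by the background around it. Because folds of different libraries are not on one scale, each was turned into its percentile within its own list, where 100 is the strongest peak. Of the 98 regions, 47 (47.96%) had a peak in all 8 lists, against 36.59% of all regions, and 19 (19.39%) had a peak in 1 list, against 17.23%. Dnmt3a held the most, with 34 regions, followed by Tet3 with 20, Tet2 with 16, Dnmt1 with 9, Kdm6b with 8, Tet1 with 7 and Dnmt3b with 4. Per 100 kb, the Dnmt3a locus held 25.6 regions, more than 96.78% of the 18686 protein-coding genes with a region, whose median was 11.4. The Tet1 and Dnmt3b loci were sparse, with 6.80 and 6.86 regions per 100 kb. Sharing also differed. All 7 Tet1 regions were in all 8 lists, whereas 3 of the 16 Tet2 regions were, and 6 Tet2 regions were in a single list. The graded differences below were tested by limma on normal scores of the ranks (in units of SD of a list) over the 69493 regions in all 8 lists, with Benjamini-Hochberg adjustment over all of them and a threshold of 0.05. The GFP lists serve as control in both comparisons with GFP. In bulk samples, a weaker peak in all cells and an open region in fewer cells cannot be told apart.

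**Figure D1:**
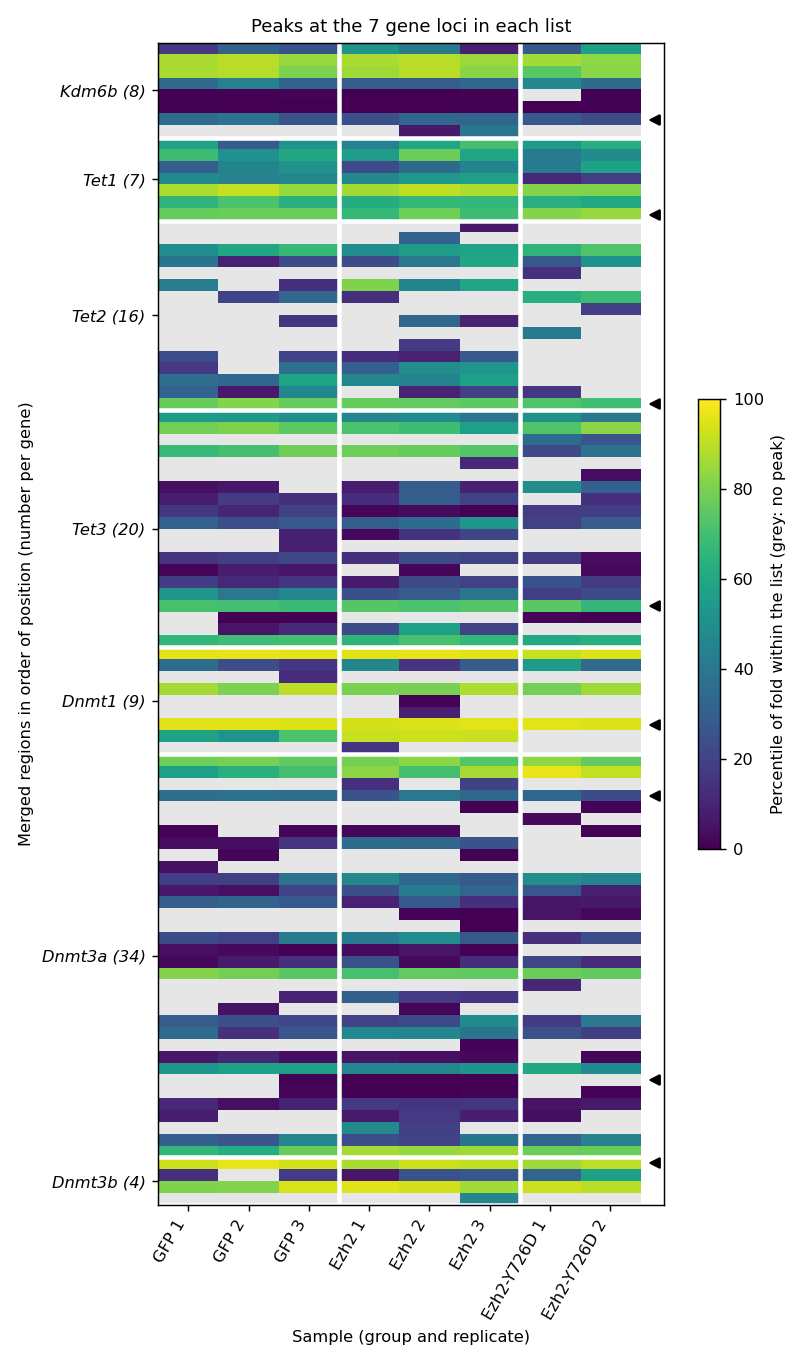
Percentile of fold within the list (colour, 0 to 100) for the 98 regions (rows, in order of position within each gene, number of regions in parentheses) in the 8 samples (columns, group and replicate). Grey marks no peak in that list and the black triangles the region at a gene start, or at a gene end for Kdm6b. All 7 Tet1 regions have a peak in every list, whereas the Tet2 and Dnmt3a rows hold many gaps, and 1 Dnmt1 row is bright in the Ezh2 lists and grey in both Ezh2-Y726D lists.

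No gene start passed the test, and the fitted differences lay between -0.49 and 0.22. Of 7 start regions present in all 8 lists (that of Kdm6b at a gene end), 0 passed the limma test in any comparison, where 5.35% of the 10587 start regions of protein-coding genes in all 8 lists passed in at least 1. At an unadjusted p under 0.05 there were 0 when Ezh2 was set against GFP, 1 when Ezh2-Y726D was, and 1 between the forms of Ezh2, and the lowest adjusted p values were 0.382, 0.175 and 0.145. For Kdm6b, which had no start window and no strand, the region within 1 kb of the gene's upper end, chr11:69417492-69419924, was taken. It reached percentiles of 35.0, 38.0 and 25.1 in GFP, 24.3, 33.8 and 32.8 in Ezh2, against 28.2 and 22.7 in Ezh2-Y726D, and the groups overlapped. The Tet1 start region, chr10:62885820-62887635, lay at 76.3, 77.6 and 76.8 in GFP, 66.4, 77.9 and 69.0 in Ezh2, against 81.3 and 84.4 in Ezh2-Y726D. Both Ezh2-Y726D values were above every other list, yet the difference between Ezh2 and Ezh2-Y726D, -0.45 ± 0.19 (SE), had an adjusted p of 0.145. The Tet2 start region, chr3:133543168-133545318, lay at 76.2, 81.6 and 76.5 in GFP, 76.2, 75.9 and 75.2 in Ezh2, against 72.6 and 69.5 in Ezh2-Y726D. Both Ezh2-Y726D values were below every other list, and the difference from GFP of -0.32 ± 0.18 (SE) had an adjusted p of 0.311. The Tet3 start region, chr6:83440501-83442222, stayed between 66.0 and 74.4 in all 8 lists. It holds the only start window given for Tet3, but lies 14986 bp inside the upstream end of the gene record. A region at that end, chr6:83455379-83457299, lay between 60.2 and 71.0 in all 8 lists. Both Ezh2-Y726D values there, 60.2 and 62.7, were below every other list. The difference from GFP was -0.28 ± 0.17 (SE), with a limma adjusted p of 0.343.

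The Dnmt1 start region, chr9:20952032-20953446, was among the strongest peaks of every list, between 93.5 and 96.0. The Dnmt3a start region, chr12:3805982-3809058, spans both annotated starts of the first cluster and lay at 36.4, 37.2 and 35.8 in GFP, 25.5, 39.5 and 33.9 in Ezh2, against 33.5 and 23.3 in Ezh2-Y726D. The Dnmt3b start region, chr2:153649017-153650430, lay at 92.0, 96.1 and 93.3 in GFP, 87.4, 92.5 and 90.5 in Ezh2, against 85.2 and 90.1 in Ezh2-Y726D. Here both Ezh2-Y726D values were below every GFP value, but the difference of -0.49 ± 0.205 (SE) had an adjusted p of 0.175. The order of the mean percentile over the 8 lists was Dnmt1 (95.1), Dnmt3b (90.9), Tet1 (76.2), Tet2 (75.5), Tet3 (71.0), Dnmt3a (33.1) and Kdm6b (30.0). Neighbours in that order overlapped across the 8 lists, except that the lowest Dnmt3b value (85.2) was above the highest of Tet1 (84.4) and the lowest of Tet3 (66.0) above the highest of Dnmt3a (39.5).

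The low fold of the Kdm6b gene-end region and the Dnmt3a start region came with breadth. They spanned 2433 and 3077 bp, and 97.35% and 99.76% of the 10587 start regions of protein-coding genes in all 8 lists were narrower. By fold, 3.56% and 4.1% of those start regions had a lower mean percentile. By the deposited −log10 p, the same regions had mean percentiles of 88.8 and 88.7, between the 79.3 of Tet1 and the 93.7 of Dnmt3b. As a description only, the start regions whose scores across the 8 lists were most like those of a member among 10880 genes were those of Sde2 for Kdm6b (Pearson's r = 0.994), Gtf2a2 for Tet1 (0.975), 2410002F23Rik for Tet2 (0.979), Prdm11 for Tet3 (0.989), Rasal2 for Dnmt1 (0.974), Kansl1 for Dnmt3a (0.984) and Klc3 for Dnmt3b (0.974). The second in order were Rnf126 (0.985), Psma3 (0.974), Ppp6r2 (0.977), Adgrl1 (0.968), Ddx50 (0.972), Scg5 (0.982) and Abce1 (0.959). The points share the 8 libraries, and the best of so many genes is high by choice.

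**Figure D2:**
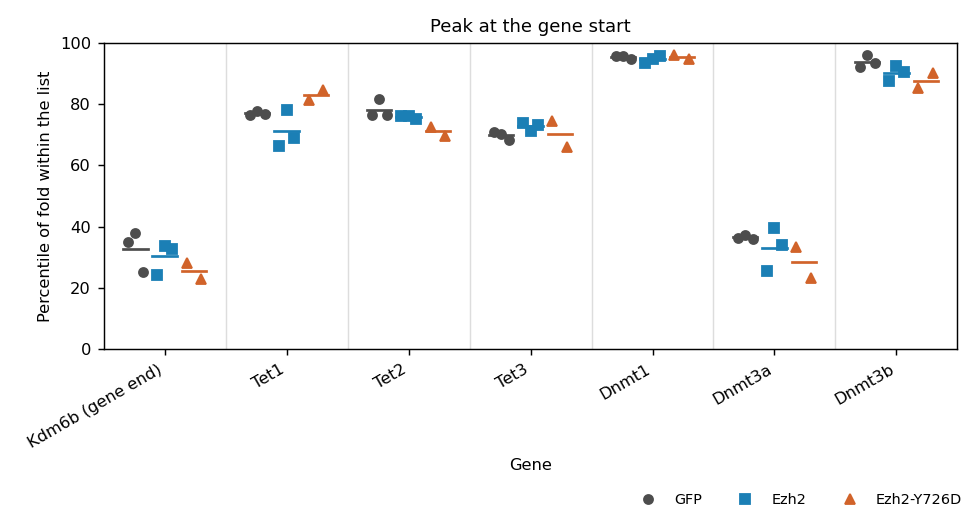
Percentile of fold within the list (y axis, 0 to 100) of the start region of each gene, or the gene-end region for Kdm6b (x axis), with 1 point per sample and a line at the group mean, for GFP (3 samples), Ezh2 (3) and Ezh2-Y726D (2). Dnmt1 and Dnmt3b lie near the top of every list, Dnmt3a and Kdm6b between 22.7 and 39.5, and both Ezh2-Y726D points lie above all others at Tet1 and below all others at Tet2.

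Comparing Ezh2 with GFP asks how overexpression of the active enzyme moved these loci. Of the 47 regions in all 8 lists, 1 was higher and 1 lower in Ezh2, where 1.59% and 2.84% of all regions tested passed in those directions, and 8 had an unadjusted p under 0.05, as did 20.0% of all regions tested. The median difference over the 47 was -0.02, against 0.01 over all regions tested. The region that fell lies inside Tet3, chr6:83409994-83410776, 31293 bp downstream of the start by its centre. Its percentiles were 16.2, 10.4 and 19.1 in GFP and 1.69, 2.83 and 0.68 in Ezh2, against 17.7 and 18.4 in Ezh2-Y726D. All 3 Ezh2 values were below all 5 other values, with a difference from GFP of -0.98 ± 0.18 (SE) and an adjusted p of 0.0178. The region that rose lies 2883 bp beyond the downstream end of Dnmt3a, chr12:3917326-3918319, at 66.1, 61.7 and 76.9 in GFP and 86.9, 84.7 and 85.8 in Ezh2, with 77.5 in each Ezh2-Y726D list. Its difference from GFP was 0.69 ± 0.16 (SE), with an adjusted p of 0.0424, and 4 of 15 alternative settings kept it below the threshold. Without GFP replicate 3 or without Ezh2 replicate 3, 0 of these regions were called in this comparison. Calls over all regions tested fell as well, from 3083 to 1178 and 1387. The Tet3 region then had an adjusted p of 0.0526 and 0.0547 (0.0218 to 0.124 over its alternative settings), and without any other single sample 1 region was called.

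No member region had a peak in all Ezh2 lists and in no GFP list, or the reverse (0 of 98 in each direction), where 2.72% and 1.68% of all merged regions did. Leaving out 1 sample raised that count to at most 4, without GFP replicate 3. With absent peaks set at the lowest rank of their list, 66 member regions with a peak in at least 5 lists could be tested among 109942. 2 of them were higher in Ezh2 than in GFP and 0 lower by limma (2 lower at an unadjusted p under 0.05), where 4.19% and 5.54% of all regions were, and the 2 higher ones lay at Dnmt1 and Dnmt3a and are described below. Neither of the 2 regions called above passed in this setting (limma adjusted p of 0.124 for the Tet3 region). Lists without a peak take nearly the same value here. The spread, which all groups share, can then be too small, and with it SE and p.

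The number of peaks at a locus was counted per list and compared by two-sided exact permutation tests over samples, 21 in all. With these group sizes no p can be below 0.1. The 7 loci together held 73, 67 and 77 peaks in GFP (72.3 ± 5.03, SD), 74, 82 and 79 in Ezh2 (78.3 ± 4.04, SD), against 63 and 70 in Ezh2-Y726D (66.5 ± 4.95). Per 10000 peaks of the list these were 5.76 to 6.31, 5.81 to 6.43, and 5.05 and 5.44. The sums depended on the lists, since Ezh2 exceeded GFP by 6.0 peaks but by -1.333 with lists of equal length, and Ezh2-Y726D differed from GFP by -5.833 but by 1.667 among peaks with a −log10 q of at least 5. At Dnmt3a the Ezh2 lists held 27, 29 and 28 peaks, above the 26, 22 and 24 of GFP (difference 4.00, exact permutation p = 0.1) and the 21 and 24 of Ezh2-Y726D (difference 5.5, p = 0.1 by the same exact test). The first difference fell to 0.333 with lists of equal length, and the second to 1.833 with such lists and to 0.333 at a −log10 q of at least 5. 1 of 7 loci thus had more peaks in every Ezh2 list than in any GFP list, and 0 had fewer, where 8.11% and 2.48% of protein-coding genes did. At Dnmt1 the counts were 5, 5 and 6 in GFP, 6, 7 and 5 in Ezh2, and 4 in each Ezh2-Y726D list. Ezh2-Y726D lay below GFP there (difference -1.33, exact permutation p = 0.1). Such a deficit without overlap was seen at 1 of 7 loci and an excess at 0, where 12% and 8.43% of genes had one. At Tet2, with 9, 6 and 10 peaks in GFP, 9, 11 and 11 in Ezh2, against 8 and 6 in Ezh2-Y726D, Ezh2 lay above Ezh2-Y726D (difference 3.33, exact permutation p = 0.2), by 1.167 with lists of equal length and by 1.5 at a −log10 q of at least 5. In all, Ezh2 had more peaks than Ezh2-Y726D with no overlap at 3 of 7 loci (Tet2, Dnmt1, Dnmt3a) and fewer at 0, where 20.9% and 8.10% of genes did. The lists overlapped in all comparisons at Kdm6b, Tet1, Tet3 and Dnmt3b.

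**Figure D3:**
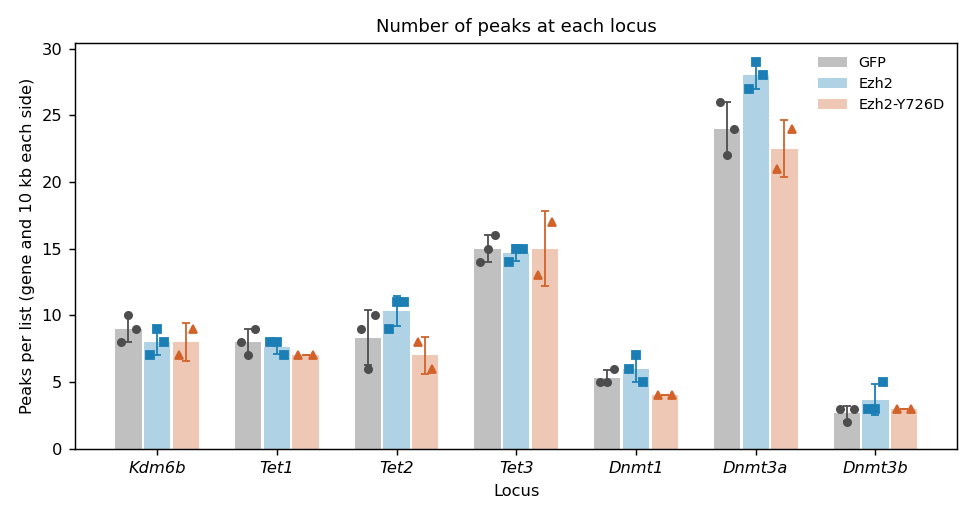
Number of peaks per list (y axis, from 0) at each locus, the gene with 10 kb on each side (x axis). Bars are group means, whiskers SD, and points single samples, for GFP (3 samples), Ezh2 (3) and Ezh2-Y726D (2). The Ezh2 samples sit at 27 to 29 at Dnmt3a, above the GFP samples at 22 to 26 (a mean difference of 4.0, but of 0.333 with lists of equal length), and the other loci overlap between Ezh2 and GFP.

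The region just beyond Dnmt1 separated the 3 groups. It lies at chr9:20961187-20962096, 1299 bp upstream of the most upstream start shown above and 3856 bp from S1pr2, a sphingosine-1-phosphate receptor gene, and was assigned to Dnmt1 by position alone. Its percentiles were 57.5, 51.7 and 71.8 in GFP and 91.6, 92.2 and 91.9 in Ezh2, and neither Ezh2-Y726D list had a peak. The folds over background were 5.18, 5.15 and 6.33 in GFP and 9.77, 9.69 and 9.16 in Ezh2. All Ezh2 values were thus above all GFP values, and the region was missing in Ezh2-Y726D. With absent peaks at the lowest rank, limma gave a difference of 1.12 ± 0.15 (SE) between Ezh2 and GFP, with an adjusted p of 0.00505. Both Ezh2-Y726D lists took that rank, which can make this SE and p too small. The open start of Dnmt1 stood at 93.5 to 96.0 throughout. Start peaks of T cell markers numbered 15 to 18 in GFP, 18 to 19 in Ezh2 and 6 to 7 in Ezh2-Y726D, and those of microglia and macrophage markers 14 to 17, 14 to 18 and 4 to 5, and their part in this result was not tested.

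Comparing Ezh2-Y726D with GFP asks what the form without catalytic activity did. Of the 47 regions in all 8 lists, 1 was higher and 4 were lower (8.51%), where 3.55% and 4.65% of all regions tested passed, and the median difference was -0.06 against -0.01. 2 of the 4 that fell lie deep inside Tet genes. The Tet3 region chr6:83381449-83382254, 59827 bp downstream of the start, reached 67.4, 70.4 and 78.5 in GFP, 78.0, 76.3 and 73.4 in Ezh2, against 22.9 and 37.8 in Ezh2-Y726D. Both Ezh2-Y726D values were far below all 6 others, with a difference from GFP of -1.28 ± 0.19 (SE) and an adjusted p of 0.00586. The Tet1 region chr10:62850840-62851771, 36019 bp downstream of the start, lay at 47.3, 44.5 and 46.1 in GFP, 46.7, 53.5 and 56.9 in Ezh2, against 11.2 and 18.1 in Ezh2-Y726D. Its difference from GFP was -0.91 ± 0.18 (SE), with an adjusted p of 0.0153. Both regions were also lower in Ezh2-Y726D than in Ezh2, as given in the direct comparison.

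The other 2 regions that fell were close to the threshold. The Tet3 region chr6:83434907-83435647, 6401 bp downstream of the start, lay at 52.0, 39.6 and 46.0 in GFP, 24.3, 28.6 and 39.3 in Ezh2, against 18.3 and 22.7 in Ezh2-Y726D, with an adjusted p of 0.0439 and 5 of 16 alternative settings keeping the call. The Dnmt3a region chr12:3837118-3837868, inside the gene, lay at 29.5, 32.1 and 27.4 in GFP, 9.05, 28.3 and 13.4 in Ezh2, against 6.22 and 6.93 in Ezh2-Y726D, with an adjusted p of 0.048 and 6 of 15 settings keeping it. The region that rose lies 2890 bp before the Dnmt3a gene record, chr12:3797873-3798669. It reached 56.5, 63.5 and 70.4 in GFP, 82.6, 70.4 and 87.0 in Ezh2, against 96.2 and 90.9 in Ezh2-Y726D, and its folds of 12.1 and 9.78 in Ezh2-Y726D exceeded those of every other list (5.16 to 8.03). The difference from GFP was 1.41 ± 0.25 (SE), with an adjusted p of 0.0109. The first Dnmt3a start, 8311 bp downstream of it, had a difference of -0.22 ± 0.19 (SE), with an adjusted p of 0.536. With Ezh2-Y726D replicate 1 left out, 0 of the 5 calls remained, and the adjusted p values were 0.0631 and 0.241 for the 2 Tet3 regions, 0.134 for the Tet1 region, and 0.205 and 0.0942 for the 2 Dnmt3a regions, with every direction kept. Over all alternative settings these p values ran from 0.00314 to 0.0631 and 0.00954 to 0.241, from 0.00688 to 0.134, and from 0.015 to 0.278 and 0.00707 to 0.0942, in that order. With replicate 2 left out, 2 calls were made. In both cases the lone sample was assumed to vary like the other groups, and calls over all regions tested also became fewer.

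4 of 98 member regions (4.08%) had a peak in every GFP list and in neither Ezh2-Y726D list, and 2 (2.04%) the reverse, where 4.72% and 4.77% of all merged regions did. With 1 Ezh2-Y726D list alone the count over both directions rose from 6 to 10 without replicate 1 and to 14 without replicate 2, since fewer lists then had to lack a peak. Of these 6, 1 (gained at Dnmt3a) was kept in every alternative setting. Leaving out 1 list cannot end such a call, so only the other settings, given next, could do so. When a peak had to cover 0.5 of a region, the losses at Tet2, beyond Dnmt1 and in the first of the Dnmt3a regions below were not called, and at a −log10 q of at least 5 neither were the other Dnmt3a loss (nor with lists of equal length) and the Tet3 gain. All 4 that were missing also had a peak in all 3 Ezh2 lists. They were the region beyond Dnmt1, 1 inside Tet2 and 2 inside Dnmt3a. The Tet2 region, chr3:133532950-133533583, 11124 bp downstream of the start, lay at 35.7, 33.6 and 58.0 in GFP and 45.9, 45.3 and 57.1 in Ezh2. The Dnmt3a regions were weaker. The first, chr12:3823431-3824021, lay at 3.13, 3.53 and 14.9 in GFP and 35.3, 33.0 and 26.1 in Ezh2, and was the second region higher in Ezh2 than GFP with absent peaks at the lowest rank (0.575 ± 0.15 (SE), limma adjusted p = 0.0495). The other, chr12:3843970-3844355, stayed at or below 5.12 in every list that held it. Of the 2 regions gained, the Tet3 region chr6:83379140-83379538 had percentiles of 35.2 and 26.6 in Ezh2-Y726D and no peak in any of the 6 other lists. Among the merged regions it is the direct neighbour of the Tet3 region at 59827 bp. The Dnmt3a region chr12:3840998-3841675 stayed at or below 5.16. With absent peaks at the lowest rank, 2 of 66 member regions exceeded GFP in Ezh2-Y726D and 4 fell below it, as did 4.79% and 8.20% of all regions. The 4 lower were the Tet1 region at 36019 bp, the Tet3 region at 59827 bp and the missing regions in Tet2 and beyond Dnmt1. Higher, beside the region before Dnmt3a, was the Dnmt3b region chr2:153656232-153656973, with 32.5 and 57.0 in Ezh2-Y726D, 13.8 and 17.8 in 2 GFP lists and none in GFP replicate 2, and 5.98, 25.2 and 27.6 in Ezh2 (0.98 ± 0.26 (SE), limma adjusted p = 0.04). 12 of 20 microglia and macrophage markers and 11 of 20 T cell markers had a start peak in at least 1 GFP list and in neither Ezh2-Y726D list (7 and 8 of them in all 3 GFP lists), and their part in the missing regions was not tested. The same rule held for 1 of 20 RGC markers and 1 of 10 bipolar markers. It held for 0 of 10 each for rods, Müller glia and amacrine cells. Its share over all gene starts was not computed.

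**Figure D4:**
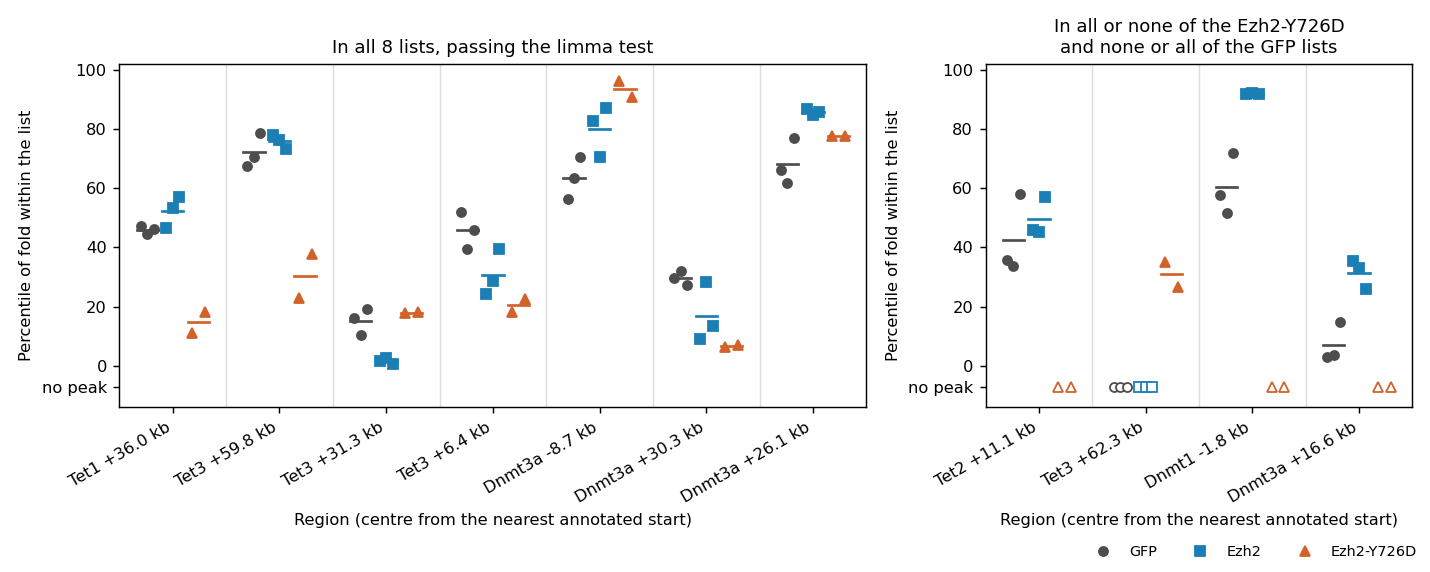
Percentile of fold within the list (y axis, no peak below 0) for the 7 regions in all 8 lists that passed the limma test in any comparison (left) and for the 4 regions with a percentile of at least 10 that had a peak in all lists of GFP or Ezh2-Y726D and none of the other (right), labelled by gene and distance of the centre from the nearest annotated start. Filled points are single samples, open points samples without a peak and lines group means. The Ezh2-Y726D points lie lowest in the Tet1 region and in the Tet3 region at +59.8 kb and highest in the Dnmt3a region at -8.7 kb, and are missing beyond Dnmt1, where the Ezh2 points lie at 91.6 to 92.2.

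The direct comparison of Ezh2 with Ezh2-Y726D asks where the active and the inactive form differ. Of the 47 regions, 2 were higher in Ezh2 and 1 was lower, where 7.0% and 6.96% of all regions tested passed, and the median difference was 0.09 against 0.02. Higher were the Tet3 region at 59827 bp (1.39 ± 0.19 (SE), limma adjusted p = 0.00217) and the Tet1 region at 36019 bp (1.07 ± 0.18 (SE), limma adjusted p = 0.00448). Without Ezh2-Y726D replicate 1 the Tet1 region missed the threshold, with an adjusted p of 0.0552 (0.00255 to 0.0552 over its settings), whereas the Tet3 region passed in all 14 alternative settings. Lower was the Tet3 region at 31293 bp (-1.13 ± 0.20 (SE), limma adjusted p = 0.00581), which passed in all 13 settings. Tet3 thus held a region that was low in Ezh2-Y726D and, nearer to the start, one that was low in Ezh2.

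11 of 98 member regions (11.22%) were called as peaks in each Ezh2 list but were missing from both Ezh2-Y726D lists, and 2 (2.04%) did the reverse, where 8.96% and 6.14% of all merged regions did. Without Ezh2-Y726D replicate 2 the count over both directions rose from 13 to 21. 7 of the 13 were kept in every alternative setting, though leaving out 1 list could not end a call. Of the 11, 4 lie in Tet2, 4 in Dnmt3a, 2 in Tet3 and 1 beyond Dnmt1, and none at Kdm6b, Tet1 or Dnmt3b. The 4 of Tet2 lie between 11124 and 28879 bp downstream of its start by their centres. The farthest, chr3:133515174-133515848, reached 80.8, 45.0 and 59.1 in Ezh2 and 41.9 and 13.5 in GFP replicates 1 and 3. Next to it, chr3:133516082-133516548 went the other way, with 62.9 and 68.2 in Ezh2-Y726D, 20.0 and 32.9 in GFP replicates 2 and 3, and 13.4 in 1 Ezh2 list. With absent peaks at the lowest rank it was lower in Ezh2 than in Ezh2-Y726D by limma (-1.81 ± 0.37 (SE), adjusted p = 0.00897). The peak over the window of the internal Dnmt3a start, chr12:3891085-3891603, was one of the 11. It was among the weakest of each list that held it, with percentiles of 0.06 to 0.58. Another weak region, chr12:3891840-3892346, lies 96 bp beyond that start and had a peak in 5 lists. Ezh2-Y726D replicate 2 was one of them, at 1.11.

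At Kdm6b nothing passed a test. Its 2 strongest regions, chr11:69394873-69396463 in the flank, which also overlaps Cyb5d1 and Naa38, and chr11:69401039-69401916 inside the gene, lay at 83.1 to 89.7 and 74.3 to 89.8 over the 8 lists. A broad region inside the gene, chr11:69408388-69411502, spanned 3115 bp and lay at 29.2 to 46.8. 6 of its 8 regions were in all 8 lists, and a flank region overlapping Dnah2 was in 2 Ezh2 lists only. At Dnmt3b, the region inside the gene at chr2:153668743-153669333 lay at 80.8 to 95.0 in all 8 lists, and the groups overlapped.

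Beside the members, 25 companion genes were described: H3K27 demethylases (Kdm6a among them), readers and partners of DNA methylation such as Mbd3 and Uhrf1, and genes of active demethylation such as Tdg and Gadd45a. They held 144 regions, 75 of them in all 8 lists. By limma, Ezh2 was above GFP at 0 and below it at 1 (1.33%), against 1.59% and 2.84% of all regions tested. At an unadjusted p under 0.05 there were 13, against 20.0% of all regions tested. Ezh2-Y726D was above GFP at 2 (2.67%) and below it at 1 (1.33%), against 3.55% and 4.65%. Ezh2 was above Ezh2-Y726D at 3 (4.0%) and below it at 5 (6.67%), against 7.0% and 6.96%. By presence, Ezh2 gained 6 (4.17%) and lost 0 relative to GFP, against 2.72% and 1.68% of all merged regions. Ezh2-Y726D gained 4 (2.78%) and lost 10 (6.94%) relative to GFP, against 4.77% and 4.72%. Relative to Ezh2-Y726D, Ezh2 gained 15 (10.42%) and lost 3 (2.08%), against 8.96% and 6.14%. Of 26 companion start regions tested, 1 passed in any comparison, where 5.35% of the start regions of protein-coding genes in all 8 lists did. Apobec3, a cytidine deaminase gene, had its start region at 50.5, 73.2 and 70.3 in GFP, 51.2, 56.5 and 52.7 in Ezh2, against 90.0 and 89.0 in Ezh2-Y726D. It was higher in Ezh2-Y726D than in GFP (1.01 ± 0.23 (SE), limma adjusted p = 0.0263) and than in Ezh2 (Ezh2 minus Ezh2-Y726D -1.41 ± 0.23 (SE), limma adjusted p = 0.00425).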

How the data were processed

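ATAC-Seq libraries of sorted RGCs were compared in 3 groups taken from the sample titles (3 GFP, 3 Ezh2 and 2 Ezh2-Y726D samples). Per the labels, the submitters' processing notes name cutadapt, Bowtie2, SAMtools, Picard, MACS2 and deepTools and the build GRCm38. In the deposited lists the authors called peaks sample by sample, after filtering on mapping quality and removing duplicates according to the peak names, steps that thin out reads in repeats. The deposited fold is the ratio of summit pileup to local background, the −log10 p-value and q-value deposited beside it come from the same caller, and the score the authors deposited was not used.

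Peaks sharing at least 1 bp were merged, and a region took the highest fold of its peaks in each list. Folds were ranked within their list. Regions in all 8 lists were tested with limma (3.58.1, R 4.3.3) on normal scores of the ranks, all groups in one fit. Alternatives ranked by −log10 p, centred log2 folds, cut the lists, changed the overlap or the flank, added a replicate block or left out 1 sample. Scripts ran in Python 3.11.15 with scipy 1.17.1 and were tested on simulated data. Gene spans came from RefSeq (GRCm38.p6) without exons, start windows gave the strand, and Kdm6b was placed by its gene ends. Named were the 7 genes, their start regions, regions passing the test, regions present in one group and absent from another, and companions whose start passed. 1 companion gene of the list is not reported here. Other regions (in the Kdm6b, Tet2 and Dnmt3b accounts, and that at the upstream end of Tet3) were chosen after their values were seen. The members and lists were chosen with earlier results of these data known.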

Additional observations from a re-analysis of the deposited data

How the results depend on the processing

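Of 10 limma calls of single regions, all kept their direction under every alternative that gave a value (6 had one at a −log10 q of at least 5, 8 with lists of equal length and 2 with the coverage rule, by which a peak must cover 0.5 of a region). The number of member regions called moved as follows. For Ezh2 against GFP (2 calls) it was 1 with the replicate block by title number, 1 with the block by peak-name number, 1 with peaks at a −log10 q of at least 5, 1 with lists of equal length, 0 with the coverage rule, and 0 to 1 without single replicates. For regions in at least 5 lists it stayed at 2, but these were other regions than the 2 called in the main fit. For Ezh2-Y726D against GFP (5 calls) it was 3 with the block by peak-name number, 3 at a −log10 q of at least 5, 1 with the coverage rule and 0 to 4 without single replicates. For Ezh2 against Ezh2-Y726D (3 calls) it was 6 when ranked by −log10 p (14.2% of all regions were called, against 14% by fold), 9 of 66 for regions in at least 5 lists (21.4% of all), 1 at a −log10 q of at least 5, 1 with the coverage rule and 2 to 3 without single replicates. Fewer regions were left to test under the −log10 q and coverage rules. Calls over all regions also became fewer in each comparison when any single sample was left out. Otherwise the cause was not tested. Deviations of samples with the same title number correlated at -0.015 to 0.048 and of others at -0.048 to 0.046. With the same peak-name number the correlations were 0.002 to 0.048. Deviations within a group are tied to each other, so these values are not independent. Whether samples shared a batch was not tested.

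Regions in all lists of one group and none of the other numbered 2 instead of 0 for Ezh2 against GFP at a −log10 q of at least 5, 2 with lists of equal length, 5 with the coverage rule and 0 to 4 without single replicates. Without single replicates they numbered 6 to 14 for Ezh2-Y726D against GFP (6) and 14 to 21 for Ezh2 against Ezh2-Y726D (13). The summed peak number at the 7 loci depended on how the lists were limited. Ezh2 exceeded GFP by 6.0 peaks, but by -1.333 with lists of equal length. Ezh2-Y726D differed from GFP by -5.833, but by 1.667 at a −log10 q of at least 5. Ezh2 exceeded Ezh2-Y726D by 11.833, by 3.667 at that limit and by 4.0 with lists of equal length. Without single replicates these differences ran from 3.333 to 8.333, -9.333 to -2.333, and 8.333 to 15.333. The depth behind a missing peak is unknown, so absence from a list means no call in that library.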

Other observations

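Dnmt3a had the most regions per 100 kb (25.6) and a start region at a mean fold percentile of 33.1, whereas Dnmt3b had 6.86 regions per 100 kb and a start region at 90.9. Kdm6b had 19.1 regions per 100 kb, more than 84.53% of protein-coding genes with a region, and its gene-end region stood at 30.0. Tet2 and Tet3 held 15.8 and 17.4 regions per 100 kb, with start regions at 75.5 and 71.0. These values describe 7 genes chosen for their function, and no relation was tested.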
